A study of Sus scrofa with 44 samples.

Results

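FTO and ALKBH5 are the 2 enzymes known to remove N6-methyladenosine (m6A), the methyl mark on internal adenosines, from mRNA. The pair was chosen by name, as ENSSSCG00000035949 (FTO) and ENSSSCG00000035120 (ALKBH5), out of 22427 pig genes listed. Their mRNA levels were followed in 18 RNA-seq libraries of fetal longissimus dorsi, the long back muscle, and their own m6A peaks in 8 peak lists. The muscle came from pig fetuses at 6 ages, named E33, E40, E50, E60, E70 and E95 after the days since mating, and each age has 3 input libraries and 3 libraries enriched with an m6A antibody (IP). The other samples were PK15 cells, an established pig kidney line, prepared as polyA-selected or as rRNA-depleted RNA with 2 input and 2 IP samples each. All muscle RNA was rRNA-depleted, and the labels name no treatment or engineered allele for any group. Nothing in the labels says that the 3 libraries of a stage came from separate fetuses, so every p-value measures the spread between these libraries, which may be technical. The 2 members stand beside the 13334 genes that average 1 TPM or more over the 18 libraries, the genes tested, and both passed that filter.

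m6A is written by a methyltransferase complex built around METTL3 and METTL14, bound by reader proteins such as the YTH family, and erased by FTO and ALKBH5. Both erasers belong to the AlkB family of iron(II) and 2-oxoglutarate dependent dioxygenases. ALKBH5 acts on m6A in mRNA in the nucleus. FTO also acts on the related mark m6Am next to the mRNA cap, and is widely known because common variants in its introns are associated with human body mass; in cultured muscle precursors, loss of FTO has been reported to impair differentiation. The mRNAs of the erasers can themselves carry m6A, which is what their peaks in an IP report.

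On the Sscrofa11.1 assembly FTO lies on the minus strand of chromosome 6, from 31177112 to 31564674, in 9 exons that RefSeq joins into a transcript of 1542 bases, 1518 of them coding for 505 amino acids. Exon 3 is its longest exon with 628 bases, all coding, while the next longest has 164. Every list had an FTO peak in this exon, and in polyA-selected PK15 RNA the peak also reached into exon 4. The same 240 bases, coding positions 437 to 676, formed the peak at E33, E50, E60, E70 and in rRNA-depleted PK15 RNA, and are printed 5′ to 3′ on the RNA strand because they carry the FTO signal. Capitals mark the match to GGAC, the core of the consensus that the m6A methyltransferase prefers.
FTO exon 3 window, chr6:31444865-31445104, minus strand: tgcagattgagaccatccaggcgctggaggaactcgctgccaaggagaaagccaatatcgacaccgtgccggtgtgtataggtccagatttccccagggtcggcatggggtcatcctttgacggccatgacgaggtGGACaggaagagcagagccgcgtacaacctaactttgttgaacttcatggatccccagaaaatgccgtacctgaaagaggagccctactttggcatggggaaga
FTO bases shared by all 8 peaks, chr6:31444895-31444955, minus strand: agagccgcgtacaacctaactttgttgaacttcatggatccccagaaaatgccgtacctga
The second line, 61 bases long, is what all 8 peaks had in common, and it lies downstream of the window's GGAC.

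ALKBH5 lies on the minus strand of chromosome 12, from 60507662 to 60530239, in 4 exons; its predicted RefSeq transcript of 3346 bases codes for 394 amino acids. Exon 1 has 1475 bases, of which 770 are coding, and every list had an ALKBH5 peak inside that coding part. The 8 peaks shared 359 bases, chr12:60529086-60529444. Their central 300 bases, coding positions 121 to 420, are printed because they hold the 4 GGAC matches that all 8 peaks covered. A further peak, found in polyA-selected PK15 RNA alone, spanned the stop codon in exon 4, and the coding part of it follows.
ALKBH5 exon 1 core, chr12:60529115-60529414, minus strand: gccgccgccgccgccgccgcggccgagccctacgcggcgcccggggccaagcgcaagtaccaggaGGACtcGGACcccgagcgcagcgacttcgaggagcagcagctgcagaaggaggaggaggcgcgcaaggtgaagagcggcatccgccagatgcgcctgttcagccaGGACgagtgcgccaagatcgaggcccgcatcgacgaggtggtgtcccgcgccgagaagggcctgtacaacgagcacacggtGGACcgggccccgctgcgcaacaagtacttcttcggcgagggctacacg
ALKBH5 exon 4, coding part of the PK15 peak, chr12:60509118-60509287, minus strand: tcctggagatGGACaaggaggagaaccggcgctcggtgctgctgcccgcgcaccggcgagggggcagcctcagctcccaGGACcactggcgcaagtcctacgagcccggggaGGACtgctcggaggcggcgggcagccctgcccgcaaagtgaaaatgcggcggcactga

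Levels are given on 2 scales. TPM, a measure of transcript abundance, is corrected for gene length and sums to 1000000 in each library, so it keeps no sequencing depth, and it falls for every other gene when one gene takes more of the total. Here 1 gene held between 37.4% and 72.4% of all TPM, and a further gene, ENSSSCG00000032599, held 17.3% in E40 replicate 2 and 14.4% in E50 replicate 3. The second scale, called scaled TPM, divides each library by the median ratio of its genes to their mean over libraries. The median change of the 13334 tested genes from E33 to E95 was -1.02 in log2 units on deposited TPM and -0.0046 on scaled TPM. Skeletal muscle markers were present at each stage, and the summed scaled TPM of 7 of them was between 884 and 1024 at E33 and between 9812 and 15400 at E95. Over the same interval the sum of 4 neuronal markers went from between 104 and 134 to between 2.42 and 4.64, and that of 3 adipocyte markers from at most 0.208 to between 22.4 and 92.4. Sums of erythroid (3 markers, 83.3 to 233 at E33 and 13.5 to 26.3 at E95) and cartilage markers (3, 110 to 155 and 28.8 to 37.4) were also lower at E95 without overlap. The erythroid fall was largely that of HBZ, with deposited TPM of 120 to 404 at E33 and 0 to 4.04 at E95. HBM (16.4 to 30.1 and 10.9 to 12.8 TPM) and ALAS2 (1.47 to 3.32 and 0.729 to 1.17) changed less. Sums for endothelium (4, 23.9 to 31.7 and 81.7 to 94.3), fibroblasts (4, 2214 to 2983 and 4804 to 7466), Schwann cells (3, 10.7 to 13.9 and 14.9 to 71.8) and macrophages (3, 29.3 to 37.0 and 37.1 to 60.6) were higher. In bulk muscle, a change in the number of cells of a type and a change in RNA per cell cannot be told apart, and the part of these markers in the results for FTO and ALKBH5 was not tested.

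FTO mRNA was low and ended development lower than it began. As deposited, its TPM was 4.79, 9.38 and 7.53 in the 3 libraries of E33 and 2.03, 1.82 and 3.37 in those of E95, so that the groups did not overlap. On deposited TPM, 64.9% of the tested genes had all E95 libraries below all E33 libraries. Stage means of FTO were 7.23 ± 2.31 TPM (SD, n = 3) at E33 and 2.41 ± 0.837 TPM at E95, a log2(TPM + 1) change of -1.26 (SE 0.42, limma, adjusted p = 0.0202, Benjamini-Hochberg over all genes tested). By the same test 45.8% of genes were lower at E95. After scaling, FTO stood at 4.05, 4.71 and 4.03 scaled TPM at E33 and at 3.14, 3.16 and 3.91 at E95. The groups again did not overlap, as for 28.2% of genes with E95 lower on this scale. The scaled change was -0.26 on log2(scaled TPM + 1) (SE 0.09, limma, adjusted p = 0.0278), against a background of 23.8% of genes called lower. FTO therefore fell on both scales, by less on scaled TPM.

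In the 4 stages between, scaled FTO stayed between 3.74 and 4.77. Deposited TPM was 6.03, 2.14 and 7.30 at E40 and 3.67, 5.74 and 1.15 at E50, the lowest value of each stage falling in the library rich in ENSSSCG00000032599. It was 4.92, 4.87 and 5.41 at E60 and 4.04, 4.22 and 3.75 at E70. In scaled TPM the stage means were 4.61 ± 0.184 at E40, 4.09 ± 0.471 at E50, 4.01 ± 0.237 at E60 and 3.99 ± 0.203 at E70 (SD, n = 3), and 3.40 ± 0.435 at E95. The order from high to low was E40, E33, E50, E60, E70, E95 on scaled TPM, and each stage overlapped its neighbour in that order. On deposited TPM the order was E33, E40, E60, E70, E50, E95, and E60 and E70 were the only neighbours whose libraries did not overlap. The limma F test over the 6 stages did not call FTO on deposited TPM (adjusted p = 0.183, where 20.1% of genes were called) or on scaled TPM (adjusted p = 0.0643, where 47.5% were called). The call of FTO at E95 against E33 was lost without E33 replicate 2 (adjusted p = 0.0939 deposited and 0.117 scaled, limma), without E95 replicate 1 (0.0659 and 0.0993) and without E95 replicate 2 (0.0797 and 0.0941). On deposited TPM it was also lost without E33 replicate 3 (adjusted p = 0.0684).

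ALKBH5, the more abundant eraser, moved in opposite directions on the 2 scales. As deposited its TPM was 16.03, 22.7 and 24.8 at E33 and 9.84, 11.97 and 13.0 at E95. Every E95 library was below every E33 library, as for 64.9% of the tested genes. The deposited means were 21.2 ± 4.59 and 11.6 ± 1.60 TPM (SD, n = 3), and the change of -0.80 (SE 0.46) did not pass the test (limma, adjusted p = 0.145). On scaled TPM, ALKBH5 stood at 13.6, 11.4 and 13.3 at E33 and at 15.2, 20.8 and 15.05 at E95, so that every E95 library was above every E33 library. On this scale 27.2% of genes had E95 above E33 without overlap. The scaled means were 12.7 ± 1.18 and 17.0 ± 3.26, a change of 0.38 (SE 0.14, limma, adjusted p = 0.0374). Genes called higher at E95 made up 22.8% of those tested on scaled TPM and 2.64% on deposited TPM. With TPM rescaled after removing the 2 most abundant genes the change was -0.25 (limma, adjusted p = 0.189). The sign of the ALKBH5 change thus depends on the scale, whereas its change lay above the median gene on each of them.

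Between these stages ALKBH5 on scaled TPM was lowest at E40 (11.07, 10.1 and 10.04) and E50 (12.8, 9.64 and 9.87). It was 13.0, 14.2 and 12.02 at E60 and 15.3, 11.9 and 11.96 at E70. Its scaled order was E95, E70, E60, E33, E50, E40 from high to low, every stage overlapping its neighbour in that order. On deposited TPM the order was E33, E60, E70, E40, E95, E50, and only E60 and E70 did not overlap as neighbours. The limma F test over the 6 stages called ALKBH5 on scaled TPM (adjusted p = 0.0137), as it did 47.5% of genes. On deposited TPM ALKBH5 was not called (adjusted p = 0.224), where 20.1% of genes were. The scaled F call was just missed without E40 replicate 2 and E50 replicate 3 together (adjusted p = 0.0506). The scaled call of E95 against E33 was lost without E33 replicate 2 (limma, adjusted p = 0.131), E33 replicate 3 (0.0586) or E95 replicate 2 (0.179), the last of which held the highest scaled ALKBH5 value of all 18 libraries.

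**Figure D1:**
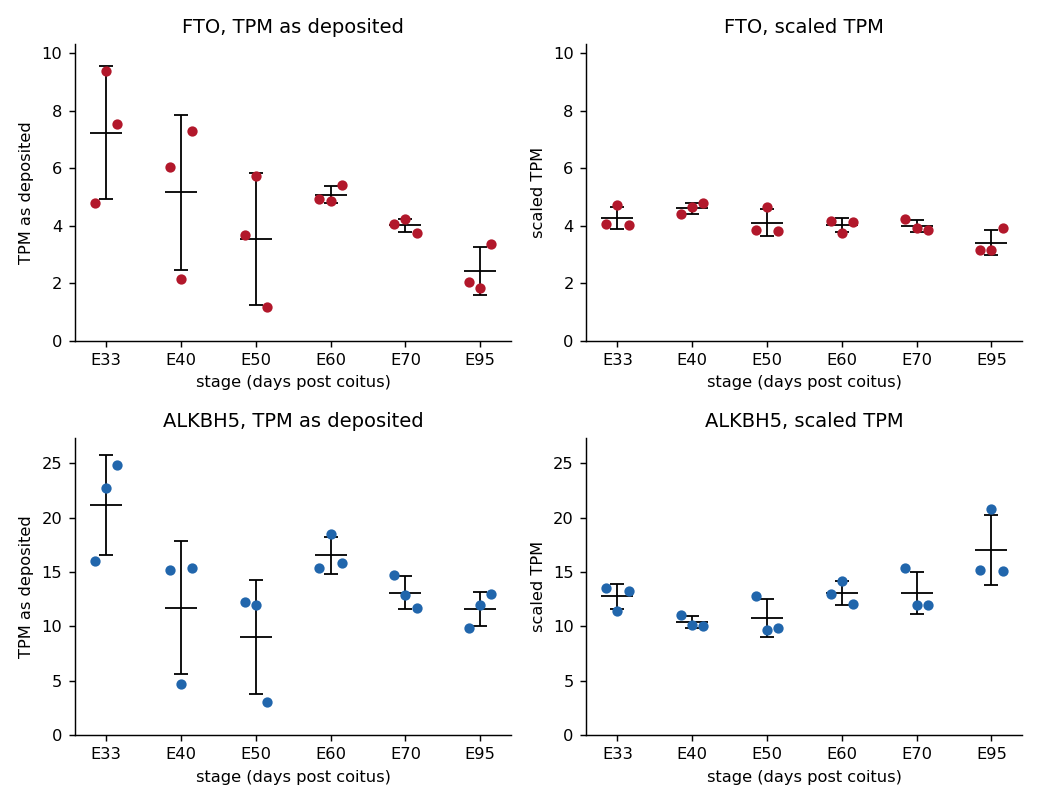
Level of FTO (top) and ALKBH5 (bottom) by stage, as deposited TPM (left) and scaled TPM (right); points are the 3 input libraries of a stage, horizontal bars their mean and vertical bars the SD. FTO at E95 lies below E33 in both left and right panels, while ALKBH5 at E95 lies below E33 as deposited (9.84 to 13.0 against 16.03 to 24.8 TPM) and above it after scaling (15.05 to 20.8 against 11.4 to 13.6).

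No step from one stage to the next was called for either gene. None of the 10 comparisons of consecutive stages passed an adjusted p of 0.05 in limma on deposited TPM, where 4.87% of genes were called from E33 to E40, 0.0075% from E40 to E50, 0.06% from E50 to E60, 0.0825% from E60 to E70 and 0.285% from E70 to E95. None of the 10 passed on scaled TPM either, where these shares were 21%, 1.54%, 0.817%, 1.76% and 13.5%. Of the 20, 2 had an unadjusted p under 0.05 in limma, both of ALKBH5. They were the step from E70 to E95 on scaled TPM, 0.35 (SE 0.14, limma, adjusted p = 0.117), and the step from E50 to E60 on deposited TPM, 0.99 (SE 0.46, limma, adjusted p = 0.320).

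The ratio of ALKBH5 to FTO within a library does not depend on the scaling. ALKBH5 TPM exceeded FTO TPM in 18 of 18 libraries. The ratio was 3.35, 2.42 and 3.30 at E33, 2.51, 2.18 and 2.10 at E40, and 3.33, 2.08 and 2.59 at E50. It was 3.11, 3.79 and 2.92 at E60 and 3.64, 3.06 and 3.11 at E70, and it reached 4.84, 6.57 and 3.85 at E95. The 3 libraries of E95 therefore had the highest ratios of all 18, above every library of the earlier stages. The mean ratio was 3.02 ± 0.523 at E33, 2.26 ± 0.218 at E40 and 5.09 ± 1.38 at E95 (SD, n = 3). From E33 to E95 the log2 ratio rose by 0.73 on average, or 1.66-fold, and from E70 to E95 by 0.61. With 1 TPM added to both genes before the ratio, as in the other changes given here, the rise from E33 to E95 was 0.46, or 1.37-fold. Each of these had p = 0.1 in a two-sided exact permutation test, the smallest that 3 against 3 libraries can give, and an adjusted p of 0.3 over the 6 comparisons made (E95 against E33 and the 5 steps). The other 4 steps had overlapping libraries and exact p between 0.2 and 1.

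Against day post coitus the log2 ratio had Pearson's r = 0.742 (p = 0.00032) and Spearman's rho = 0.599 (p = 0.0106) over the 18 libraries, by two-sided permutation with 100000 resamples. This was the only relation with day that was computed. The permutation moved single libraries, although the 3 libraries of a stage share 1 day. All permutation p-values of this relation thus take the libraries as independent of one another, and do not measure the spread between stages. Leaving out E95 replicates 1 and 2, which with replicate 3 lie farthest from the median day, gave r = 0.545 (permutation p = 0.0286) and rho = 0.430 (p = 0.0995). With E95 left out altogether r was 0.433 (permutation p = 0.106) and rho 0.306 (p = 0.273). The relation over all stages thus no longer held without E95. With E33 left out instead, r was 0.863 and rho 0.829 (permutation p = 0.00036 for rho). With both E33 and E95 left out, an alternative chosen after seeing the data, r over the 12 libraries of E40 to E70 was 0.743 (permutation p = 0.00725) and rho 0.669 (p = 0.022). E33, with a mean ratio above those of E40 and E50, and E95 therefore move the values in opposite directions. The summed muscle and adipocyte markers rose over the same days, and neither the labels nor the files name a batch within which the relation could be recomputed.

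**Figure D2:**
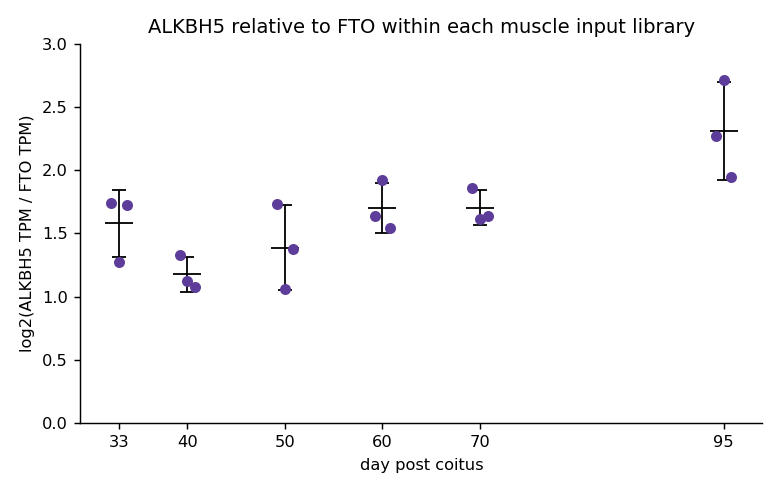
log2 of ALKBH5 TPM over FTO TPM in each of the 18 muscle input libraries against day post coitus; points are libraries, horizontal bars stage means and vertical bars the SD. The E95 libraries lie between 1.95 and 2.72, above the highest library of any earlier stage, 1.92 at E60.

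The pair varied together or apart according to the scale. Over the 18 libraries log2(TPM + 1) of FTO and of ALKBH5 had Pearson's r = 0.836 as deposited and r = -0.74 after scaling; these are descriptions over libraries that share their scaling. Among 10752 other tested genes with a symbol, the scaled profiles most like that of FTO were those of ANKIB1 (r = 0.936), PSD3 (0.936), HMBOX1 (0.923), RBFOX2 (0.920) and EFL1 (0.917) over 18 libraries. ANKIB1 is an E3 ubiquitin ligase, HMBOX1 a homeobox protein that binds telomeric DNA, RBFOX2 a splicing regulator of muscle and other tissues, and EFL1 a GTPase of ribosome maturation. RBFOX2, the most abundant of these, had 24.4 ± 0.923 scaled TPM at E33 and 17.7 ± 2.40 at E95. The profiles most like that of ALKBH5 were those of GRK2 (r = 0.898), ECHS1 (0.898), NOSIP (0.896), PKM (0.885) and IL10RA (0.884). GRK2 phosphorylates G protein-coupled receptors, ECHS1 is a mitochondrial enzyme of fatty acid oxidation, PKM is pyruvate kinase of glycolysis and IL10RA a receptor subunit for interleukin-10. ECHS1 had 34.97 ± 2.15 scaled TPM at E33 and 56.7 ± 12.7 at E95 (SD, n = 3).

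Turning to the peaks, both erasers carried a peak in all 6 stage lists and in both PK15 lists. Of the tested genes, 18.3% had a peak in all 6 stage lists and 14.5% in all 8. The lists have 1 entry per stage or preparation and no replicates, so the peaks are described and not tested. Each stage list held exactly 1 FTO and 1 ALKBH5 peak, as for 25.97% of the 1937 genes with a peak in all 8 lists. In 490 of those 503 single-peak genes (97.4%) the 6 stage peaks shared a base, as they did in FTO and ALKBH5, so that a fixed position was the rule among such genes. The FTO peak was in coding sequence away from the stop codon, its midpoint between 887 and 962 bases from the end of the stop codon. The ALKBH5 exon 1 peak was too, with its midpoint between 870 and 930 bases from that end. Among all stage-list peaks placed on RefSeq coding transcripts, 63.4% to 72.2% were coding and more than 200 bases from the stop codon, while 18.3% to 22.6% lay within 200 bases of it. Peaks in exons over 400 bases long, like the FTO exon 3 and ALKBH5 exon 1 peaks, made up 71.8% to 80.6% of them.

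The ALKBH5 peak kept its upstream edge at coding position 61 in all 6 stages and in rRNA-depleted PK15 RNA. Its downstream edge was at 479 at E33 and E50, 449 at E40, E70 and E95, 509 at E60 and 539 in both PK15 lists. Of the 28 pairs that its 8 peaks form, 28 overlapped by at least 50% of each peak. The FTO peak was less uniform. It ran from 437 to 676 at E33, E50, E60 and E70, was 150 bases long at E40 (497 to 646), and at E95 shrank to the last 91 bases, 586 to 676. All 28 pairs of FTO peaks shared a base, and 20 of 28 shared at least 50% of each peak. In polyA-selected PK15 RNA the FTO peak continued across the junction into exon 4 and ended at position 795. E95 was also the stage with the lowest FTO level, 2.41 TPM as deposited, and with the largest peak-calling p-value for FTO, 2.1e-06. Level and p-value did not keep the same order in the other stages. There the p-value ran from 1e-22 at E50, the next lowest in level with 3.52 TPM, to 9.5e-10 at E40 with 5.16 TPM. The part of the level in the width of the peak was not tested.

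**Figure D3:**
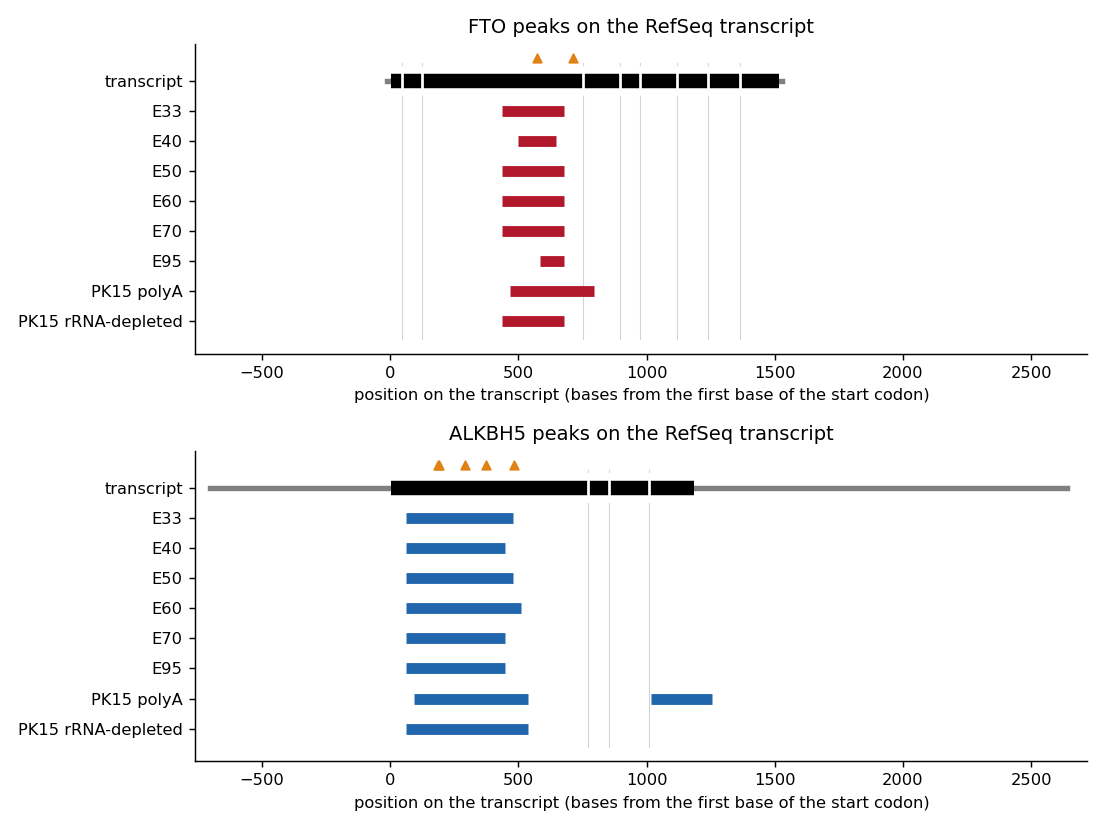
Extent of each FTO (red) and ALKBH5 (blue) peak on the RefSeq transcript, in bases from the first base of the start codon, for the 8 peak lists; the thick black bar is coding sequence, grey the untranslated parts, white gaps and thin lines the exon junctions, and orange triangles the GGAC matches that lie in at least 1 of the exon 3 or exon 1 peaks. The E95 peak of FTO covers 586 to 676 and lies downstream of the match at 573, and the ALKBH5 peak near the stop codon appears in the polyA-selected PK15 list alone.

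Fold enrichment over input, as deposited, was below the median of the list for FTO and at or above it for ALKBH5 in muscle. The FTO folds from E33 to E95, in order of age, were 2.69, 2.82, 4.18, 2.98, 2.92 and 3.26, between 0.667 and 0.857 of the median of its list. Between 16.4% and 38.8% of the peaks in a stage list had a lower fold than the FTO peak. The ALKBH5 folds from E33 to E95, in order of age, were 4.36, 7.27, 6.71, 6.22, 4.23 and 4.44, between 1.00 and 1.72 of the median. Between 50.1% and 86.3% of peaks had a lower fold than the ALKBH5 peak. In each stage the fold of the ALKBH5 peak was above that of the FTO peak. The 3 highest folds of ALKBH5 were those at E40, E50 and E60. On scaled TPM these stages included its lowest means (10.4 at E40 and 10.8 at E50) but also E60 (13.1). On deposited TPM its lowest means were instead at E50 (9.04) and E95 (11.6, with a fold of 4.44), followed by E40 (11.7). With 1 list per stage no error can be attached to the folds. The depth behind each peak is not in the lists.

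In PK15 cells the folds of both peaks were higher in the polyA-selected list than in the rRNA-depleted one; with 1 list per preparation this difference was not tested. The FTO fold was 9.63 in polyA-selected RNA and 3.45 in rRNA-depleted RNA, and that of the ALKBH5 exon 1 peak was 18.9 and 3.56. The list medians differed in the same direction, 7.41 against 3.92, so that relative to its list FTO stood at 1.30 and 0.880 and ALKBH5 at 2.55 and 0.908. The ALKBH5 peak over the stop codon had a fold of 5.85 in polyA-selected RNA, 0.789 of the list median. No expression values of PK15 cells were used, so the levels of the 2 genes there are not given.

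**Figure D4:**
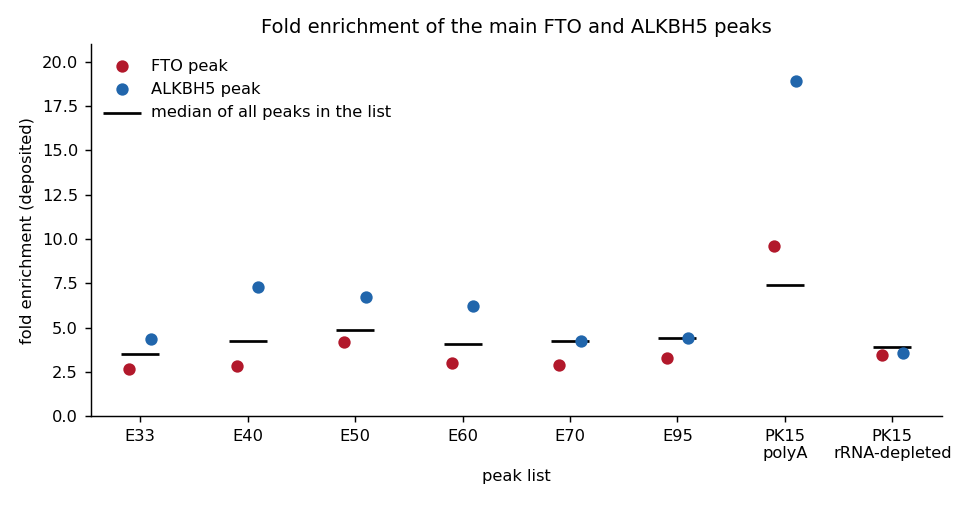
Deposited fold enrichment of the FTO exon 3 peak (red) and the ALKBH5 exon 1 peak (blue) in each peak list, with the median fold of all peaks of that list as a black bar. In the 6 stage lists FTO lies below the bar (2.69 to 4.18) and ALKBH5 at or above it (4.23 to 7.27).

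The consensus core was searched as GGAC and GGACT on the RNA strand and on the opposite strand; every GGACT is also a GGAC. The ALKBH5 exon 1 peak held 4 GGAC at E33, E40, E50, E70 and E95 and 5 at E60, one of them GGACT, against 1 GGAC on the opposite strand in each list. Of the peaks whose length is within 10% of it, 85.5% to 91.7% held GGAC on the RNA strand and 61.4% to 76.0% on the other strand, and 41.2% to 50.1% held GGACT on the RNA strand. Matches began at coding positions 186 (the GGACT), 192, 291 and 372 under all 8 peaks, and at 483 under 3. Over the union of the muscle peaks GGAC had 11.14 matches per 1000 bases, compared with 5.52 in the rest of the ALKBH5 transcript. GGACT, with 1 match in the union, had similar densities of 2.23 there and 2.07 in the rest.

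The FTO peak was poorer in the motif. It held 1 GGAC and no GGACT at E33, E40, E50, E60 and E70, and no GGAC at E95, whose shorter peak starts downstream of the match at position 573. Of peaks of like length 64.8% to 79% held GGAC in the first 5 of these lists, and 54.0% of those as short as the E95 peak did; on the other strand it was 36.6% to 53.6% and 27.1%. The only GGACT of the RefSeq FTO transcript lies in exon 3, outside every peak. GGAC density was 4.17 per 1000 bases in the FTO peak window and 4.61 in the rest of this transcript. The FTO transcript holds only 14 bases of 5′ and 10 of 3′ untranslated sequence, so these statements cover little beyond its coding sequence. That of ALKBH5 holds 705 and 1456, so the densities of the 2 genes are not directly comparable. The related GAACT occurred in the FTO peak in all 6 stage lists, 1 of its copies within the 61 shared bases, and in 15.6% to 30.1% of peaks of like length. In the exon 4 peak of ALKBH5 in PK15 cells there were 4 GGAC, of which 2 were GGACT. These matches describe the windows and are no measurement of methylation at a base.

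Among the other AlkB proteins, ALKBH1 to ALKBH4 and ALKBH6 to ALKBH8, 0 of 7 passed the limma test between E33 and E95 on scaled TPM and 0 of 7 had an unadjusted p under 0.05 there. On deposited TPM 4 of 7 were lower and none higher, at an unadjusted p under 0.05 also none higher. Over all genes tested the shares called were 45.8% lower and 2.64% higher as deposited, and 23.8% lower and 22.8% higher on scaled TPM; the deposited count of the family is near that background. ALKBH2, a DNA repair dioxygenase, changed by -1.40 (SE 0.41, limma, adjusted p = 0.0116) as deposited, and ALKBH7, a mitochondrial protein, by -1.30 (SE 0.43, adjusted p = 0.0197). ALKBH4 and ALKBH8, a tRNA modifying enzyme, also fell as deposited, by 1.17 and 1.09 on the log2 scale. The median change of the 7 was -1.09 as deposited and -0.04 scaled, beside -1.02 and -0.0046 for all genes tested. On scaled TPM, FTO (-0.26) and ALKBH5 (0.38) were the only genes of the 9 in the family that passed between E33 and E95. ALKBH3 had a scaled difference of 0.33 (SE 0.18, limma, adjusted p = 0.148), close in size to that of ALKBH5. The picture differed in the limma F test over the 6 stages. On scaled TPM that test called ALKBH5 (adjusted p = 0.0137) and ALKBH7 (0.0479), just missed ALKBH4 (0.0503) and did not call FTO (0.0643). Of all genes tested, 47.5% were called by it on this scale. As deposited the F test called ALKBH7 alone of the 9 (limma F, adjusted p = 0.0379), and 20.1% of all genes tested. Whether FTO or ALKBH5 differed from the other family members was not tested.

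**Figure D5:**
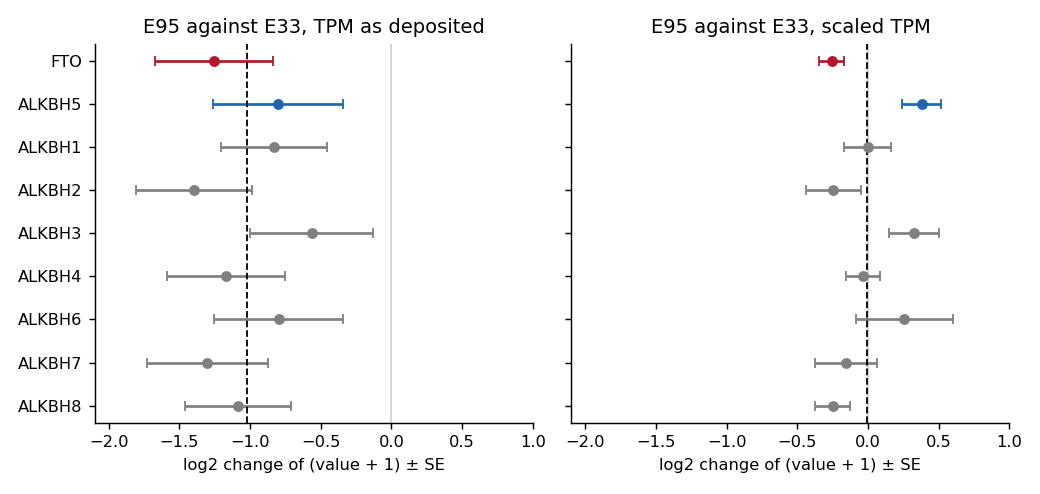
Change from E33 to E95 in log2(value + 1) for FTO (red), ALKBH5 (blue) and 7 other AlkB family genes (grey), on deposited TPM (left) and scaled TPM (right); bars are the limma SE and the dashed line is the median of all 13334 genes tested. On deposited TPM all 9 lie below 0 (median of all genes -1.02), and on scaled TPM FTO lies below 0 and ALKBH5 above it.

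A list of writer genes, not all of them enzymes, and a list of reader genes were compared over the same interval. The writers were METTL3, METTL14, METTL16, WTAP, VIRMA, ZC3H13, CBLL1, RBM15, RBM15B, PCIF1, METTL5 and TRMT112. Whether each of these acts on m6A in mRNA was not examined. Of 12 writer genes 5 were lower and none higher on deposited TPM in limma, and on scaled TPM 1 was higher (VIRMA, the scaffold of the complex, by 0.47) and 2 were lower (RBM15, by 0.33 on the log2 scale, and RBM15B, by 0.98). METTL3 and METTL14, the catalytic pair, had scaled differences of 0.10 (SE 0.12, limma, adjusted p = 0.546) and -0.08 (SE 0.11, adjusted p = 0.577). The deposited count of writers lies near the 45.8% of all genes called lower, and on scaled TPM the background was 22.8% higher and 23.8% lower. Of 10 readers tested, 6 were lower and none higher as deposited, and 2 were higher (YTHDC1 and YTHDC2) and 3 lower (IGF2BP1, IGF2BP2 and IGF2BP3) on scaled TPM. Against the same backgrounds (45.8% lower and 2.64% higher deposited, 22.8% higher and 23.8% lower scaled) the scaled reader counts are near those of all genes. List medians were -1.06 and -1.20 as deposited, and 0.07 and -0.01 scaled, for writers and readers, again near those of all genes.

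Genes next to FTO and ALKBH5 on their chromosomes were examined in the same way. Of 9 neighbours tested, 6 were lower and none higher as deposited (for none of the 4 lists was any member higher on deposited TPM at an unadjusted p under 0.05), while on scaled TPM 3 were higher and 1 lower. All genes tested had 45.8% lower and 2.64% higher as deposited, and 22.8% higher and 23.8% lower on scaled TPM. RPGRIP1L, a ciliary gene that starts beside the FTO start, rose by 0.73 (SE 0.13, limma, adjusted p = 0.000312) on scaled TPM, from 1.53 ± 0.451 to 3.17 ± 0.377, while FTO fell. IRX3 and IRX5, homeobox genes beyond the 3′ end of FTO, had scaled differences of -1.06 (SE 0.52, limma, adjusted p = 0.110) and -1.53 (SE 0.65, adjusted p = 0.0664), with a large spread between libraries. Both were called lower as deposited, IRX3 at -2.25 (SE 0.50, limma, adjusted p = 0.00194) and IRX5 at -2.70 (SE 0.43, adjusted p = 0.000123). Near ALKBH5, MIEF2, a mitochondrial fission factor, rose on scaled TPM by 1.71 (SE 0.25, limma, adjusted p = 6.67e-05). On the same scale FLII, an actin-binding gelsolin relative, rose by 0.52 (SE 0.18, adjusted p = 0.0268), and LLGL1, a cell polarity gene, fell by 0.87 (SE 0.19) in log2 units. As deposited, MIEF2 (0.61, SE 0.37, limma, adjusted p = 0.166) and FLII (-0.72, SE 0.44, adjusted p = 0.165) were not called, and FLII had the opposite sign. LLGL1 was called lower as deposited too (-2.07, SE 0.51, limma, adjusted p = 0.00419).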

How the data were processed

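Input and m6A-IP libraries came from total RNA that was rRNA-depleted for muscle, per the labels' protocols; the submitters' processing notes name Trimmomatic, HISAT2 and the build Sscrofa11.1, and how TPM were estimated, how peaks were called and whether replicates were pooled is not given in the sources used here. The deposited TPM tables hold 22427 genes for each of 18 muscle input libraries; each sums to 1000000, so the depth is unknown. The deposited peak lists (8) give the authors' fold (a ratio of IP over input) and p-value per peak; 1 duplicate entry was dropped.

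The 13334 genes that average 1 TPM or more were tested with limma 3.58.1 in R 4.3.3 on log2(TPM + 1), with 1 mean per stage, 12 residual degrees of freedom, trend and Benjamini-Hochberg adjustment, on TPM as deposited and after median-ratio scaling over 11974 genes above 0 in every library. A fold change on this scale understates the change of low genes. The fit was tested on simulated data. Ratios were tested with scipy 1.17.1 by permutation. Named genes are FTO, ALKBH5, fixed lists of writers, readers, AlkB relatives and neighbours (IRX6 was under the filter; HNRNPC and MYO15A were not matched by symbol), and the 5 genes whose scaled profile correlated most with each member. Members and lists were chosen with earlier results of these data known. Peaks were placed on the RefSeq Sscrofa11.1 annotation, which holds 80.8% to 91.0% of the junctions within peaks of each list. Alternatives were other scalings, pseudocounts of 0.1 and 5, other filters, leaving out libraries, and a replicate block.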

Additional observations from a re-analysis of the deposited data

How the results depend on the processing

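The fall of FTO from E33 to E95 kept its direction under every alternative run, and was called on deposited TPM under all but 4 single-library omissions. Leaving out 1 library at a time gave changes between -1.49 and -1.07 as deposited and between -0.34 and -0.20 scaled. With the 6 libraries of E33 and E95 alone in the limma fit the scaled change of -0.26 was not called (adjusted p = 0.117). For ALKBH5 the deposited change of -0.80 reversed to 0.38 with median-ratio scaling and to 0.30 with quantile normalization (limma, adjusted p = 0.0506 for the latter), a difference built into these scalings, and stayed negative at -0.25 with the 2 most abundant genes removed before rescaling (adjusted p = 0.189). The deposited -0.80 itself was called without E40 replicate 2 and E50 replicate 3, the 2 libraries rich in ENSSSCG00000032599 (limma, adjusted p = 0.00102), and when the fit held E33 and E95 alone (0.0250). The scaled 0.38 was not called with only those 6 (limma, adjusted p = 0.0965), and single-library omissions gave 0.23 to 0.45. The F test over stages called deposited FTO after the 2 most abundant genes were removed before rescaling (limma, adjusted p = 0.00191) and without those 2 libraries (0.00309); single-library omissions gave 0.0398 to 0.420 as deposited and 0.0236 to 0.200 scaled. It called deposited ALKBH5 with median-ratio scaling (limma, adjusted p = 0.0137), quantile normalization (0.0250) or without the same 2 libraries (0.00994), and missed scaled ALKBH5 without them (0.0506). FTO, with a mean under 5 TPM, could not be tested under the filter at 5 TPM. Spearman's rank correlation of the ratio with day was 0.306 with E95 left out, 0.430 without E95 replicates 1 and 2 (permutation p = 0.0995) and, an alternative chosen after seeing the data, 0.669 with E33 and E95 left out. Above the median fold of their list, FTO had a peak in 1 list and ALKBH5 in 7. Of the stage lists, the FTO peak held GGACT in 0 and AGACT in 0, and the ALKBH5 peak held AGACT in 0 and GAACT in 0. Of the 38 related genes, 21 were lower at E95 as deposited, where 45.8% of all genes tested were called lower. The count was 9 to 30 with 1 library left out and 33 without the 2 libraries named. The share of all genes under these alternatives and under the replicate block is not given here. The changes in the count are therefore not results about the related genes. The same replicate numbers did not pair the libraries (45 pairs, correlation of deviations between -0.24 and 0.11 as deposited); with the replicate block the changes of FTO stayed at -1.26 (limma, adjusted p = 0.0357) and -0.26 scaled (0.0416) and those of ALKBH5 at -0.80 (0.188) and 0.38 scaled (0.0376), and 7 of 18 libraries as deposited, 9 of 18 scaled, correlated best with their own number. The block changed no call of FTO or ALKBH5, and it gave 16 related genes lower as deposited, against 21 without it. The number of libraries, 3 per stage, limits the precision, and the cause of the other differences between settings was not tested.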
